A study of Mus musculus with 5 samples.

Results

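miR-31 and miR-489 are 2 microRNAs tied to the resting state of muscle satellite cells, and they were followed here through injury and repair of a mouse leg muscle. They were picked by name among 217 miRNA assays (222 with 5 control RNAs): an assay belonged if its name, without the species prefix and catalogue number, was miR-31 or miR-489. Tibialis anterior muscles came from C57BL/6J males aged 4 to 6 months. The 5 injured groups were muscles taken 1, 3, 4, 7 and 21 days after 100 µl of 2.5 µM cardiotoxin, a snake venom peptide that kills myofibres, was injected into the front compartment of both hind legs. The baseline muscles had no injection, so effects of the toxin and of the injection itself cannot be told apart. The labels give 4 mice per time point and no genetic modification. Days 2 and 5 of the study were not analysed here.

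Satellite cells are the stem cells of skeletal muscle, resting under the basal lamina of the fibre until damage calls them to divide, fuse into new fibres or return to rest. A miRNA is a short RNA that guides silencing proteins to mRNAs matching its seed, the bases near its 5′ end. miR-31 holds back translation of the Myf5 mRNA, which resting satellite cells store in RNA granules, so that this myogenic factor is made only on activation. miR-489 keeps satellite cells at rest by repressing Dek, a chromatin protein that promotes their expansion. All these measurements are of RNA from whole muscle, in which satellite cells are a small minority, and in such samples fewer cells of a type and less of the RNA per cell cannot be told apart.

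The mature sequences of both miRNAs were found in RefSeq (build GRCm38.p6, mouse). The files name the assays without an arm, so the arm printed is the one the older names miR-31, miR-489 and miR-425 stood for. The arm that each assay measures was not checked. Each is given 5′ to 3′ with bases 2 to 8, the seed that chooses its targets, in capitals, and miR-425 is added because RefSeq gives its 5p arm the same seed as miR-489.
miR-31: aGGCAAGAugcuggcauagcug
miR-489: aAUGACACcacauauauggcagc
miR-425: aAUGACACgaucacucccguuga

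The seeds of miR-31 and miR-489 hold the same base at 1 of 7 positions. Among 1738 mature mouse miRNAs of the table, none shared the seed of miR-31, and miR-425-5p alone shared that of miR-489. Beyond the seed, miR-489 and miR-425 held the same base at 4 of 15 positions. miR-31 is 22 bases long with 54.5% G and C, and miR-489 is 23 bases long with 43.5%. The hairpins they are cut from are shown next with the mature arm in capitals, which lies on the 5′ side of the miR-31 hairpin and on the 3′ side of the miR-489 hairpin.
miR-31 hairpin: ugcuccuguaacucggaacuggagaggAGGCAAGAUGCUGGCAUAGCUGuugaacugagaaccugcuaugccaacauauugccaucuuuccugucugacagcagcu
miR-489 hairpin: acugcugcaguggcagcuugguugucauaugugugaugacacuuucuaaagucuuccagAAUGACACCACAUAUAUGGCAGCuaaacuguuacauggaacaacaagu

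The miR-31 hairpin lies at chr4:88910557-88910662 on the minus strand, within the span of the long noncoding RNA gene Gm49890. The miR-489 hairpin lies at chr6:3721897-3722003 on the minus strand, within the span of Calcr. That gene encodes the calcitonin receptor, itself a marker of resting satellite cells. The only other miRNA gene within 10000 bases of either was Mir653, 512 bases from Mir489, whose miRNA was not analysed here.

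Each level is a threshold cycle (Ct) of a TaqMan reaction, where 1 cycle less is about 1 log2 unit more RNA. Each group held 4 Ct values per assay, and the files do not name the mouse behind a value. They were taken as the 4 mice, and if any are repeat reactions, p-values reflect only the spread of reactions. Of the 217 miRNAs, between 213 and 217 were detected in a group, meaning a Ct under 35 in at least 3 of 4 values. As a check of the tissue, the fibre miRNAs miR-133a, miR-1 and miR-133b had baseline Ct of 9.35 ± 0.17, 12.92 ± 0.31 and 14.96 ± 0.38 (SD, n = 4). The other fibre miRNAs measured, miR-486 and miR-499, came much later, at 26.45 ± 0.61 and 27.46 ± 0.50. The control RNAs did not move alike, so each change is given against the median miRNA and with U6, the control RNA marked in the files. Between these scalings a change from baseline differed by 1.91, 1.12, 0.67, 0.09 and 0.12 on days 1, 3, 4, 7 and 21, and was always lower with U6. The words rose and fell are kept for a miRNA where limma's test across all miRNAs gave an adjusted p under 0.05 in the same direction under both scalings.

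miR-31 climbed steeply between days 1 and 3 and was still near its highest level at day 21. Its raw Ct was 27.05, 26.82, 26.50 and 25.21 in the 4 baseline values, the last standing more than a cycle above each of the others in RNA. At day 1 it was 23.67, 23.79, 23.58 and 23.83. At day 3 it was 19.80, 19.13, 19.18 and 19.74, and no injured value from day 1 on overlapped the baseline values. Day 4 gave 19.03, 18.79, 19.31 and 18.69, day 7 gave 18.55, 19.24, 19.28 and 18.54, and day 21 gave 19.95, 19.93, 19.61 and 19.49. In raw Ct the day 21 values all came later than those of day 7, by less than a cycle on average, and all far earlier than those of baseline.

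**Figure D1:**
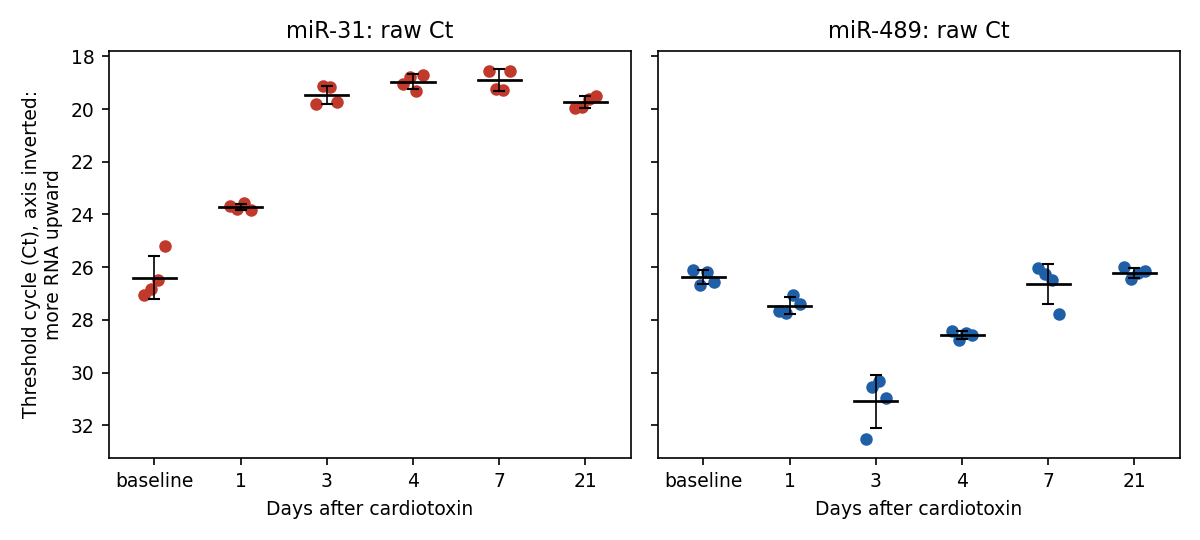
Raw threshold cycles of miR-31 (left) and miR-489 (right) at baseline and on days 1, 3, 4, 7 and 21 after cardiotoxin (days spaced evenly, not to scale), with the Ct axis inverted so that more RNA is upward. Points are the 4 values of a group and black bars their mean ± SD: miR-31 goes from a mean of 26.4 at baseline to 19.5 at day 3 and 19.7 at day 21, while miR-489 goes from 26.4 to 31.1 and back to 26.2.

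Against the median miRNA, miR-31 rose by 6.22 ± 0.24 on the log2 scale at day 3 (SE, 4 values a group), a 74.8-fold increase (limma adjusted p = 1.59e-15). On days 4, 7 and 21 it stood at 6.50 ± 0.24, 6.30 ± 0.24 and 6.50 ± 0.24 above baseline, the last being 90.6-fold. With U6 the changes were 5.10 ± 0.42, 5.82 ± 0.42, 6.21 ± 0.42 and 6.38 ± 0.42 on the same days. As background, 19.3%, 25.4%, 31.5% and 22.1% of tested miRNAs rose on those days. By size of change against the median miRNA, miR-31 stood at rank 3 of 212, 3 of 213, 5 of 213 and 2 of 213 on the same days. At day 21 only miR-433 of the tested miRNAs was further above baseline. These ranks leave out miRNAs not detected in both groups, and 213 of 217 were detected at baseline.

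At day 1 the change of miR-31 passed against the median miRNA and with 7 of 8 other scalings, but not with U6. Against the median miRNA its values were 2.48, 2.26, 2.17 and 2.25 log2 units above the baseline mean, all above the highest baseline value of 0.92. The change was 2.29 ± 0.24 (adjusted p = 1.79e-08), in a contrast where 41.2% of tested miRNAs were higher by the same scaling. With U6 the values were 1.19, 0.72, -0.54 and 0.17, which overlap the baseline range of -0.84 to 0.95. The change was then 0.39 ± 0.42 with a 95% interval of -0.46 to 1.23 (adjusted p = 0.408). Under both scalings together 9.00% of miRNAs rose at day 1, and miR-31 was not among them.

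Between days 1 and 3 miR-31 rose by a further 3.93 ± 0.24 against the median miRNA and 4.72 ± 0.42 with U6 (adjusted p = 7e-12 and 1.15e-10), in a contrast where 44.1% of miRNAs changed in either direction. From day 3 on no step passed the test with either of these, although the day 3 to 4 step was called with Y1 (-0.75) and the day 7 to 21 step with raw Ct (-0.84). The step from day 3 to 4 was 0.27 with a 95% interval of -0.23 to 0.77 (adjusted p = 0.359), that from day 4 to 7 was -0.20 (-0.70 to 0.30, adjusted p = 0.526) and that from day 7 to 21 was 0.20 (-0.30 to 0.70, adjusted p = 0.469). With U6 these steps were 0.72, 0.39 and 0.17. Of all tested miRNAs, 23.1%, 17.1% and 33.8% changed over the same steps. Ordered by level against the median miRNA, the groups ran from baseline through day 1 to days 3, 7, 4 and 21, and the last 4 overlapped, with values between 5.88 and 6.79. The order of those 4 groups is therefore not set by their means.

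miR-489 went the other way and came back. Its raw Ct was 26.11, 26.67, 26.19 and 26.55 at baseline, and 27.67, 27.74, 27.05 and 27.38 at day 1. Day 3 gave 32.53, 30.53, 30.31 and 30.98, all later than any value of the other groups. Day 4 gave 28.42, 28.77, 28.49 and 28.56. By day 7 the Ct was 26.04, 26.26, 26.48 and 27.77, of which 1 lay apart with less RNA, and by day 21 it was 26.01, 26.45, 26.23 and 26.16. The day 21 values overlapped those of baseline. None of these values reached the detection limit of Ct 35, so no change of miR-489 is a bound.

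Against the median miRNA, miR-489 fell, with changes of -1.46, -5.42, -3.12 and -1.45 (each ± 0.37) on days 1, 3, 4 and 7 (limma adjusted p = 0.00113, 1.32e-11, 8.8e-08 and 0.00115), which at day 3 is 42.7-fold lower. With U6 the same changes were -3.37 ± 0.50, -6.54 ± 0.50, -3.80 ± 0.50 and -1.54 ± 0.50 (adjusted p between 8.68e-13 and 0.00744). The share of tested miRNAs that fell on these days was 38.9%, 41.0%, 41.3% and 35.7%, so a fall as such was common. At day 3 only 3 of 212 tested miRNAs were further below baseline: miR-1, miR-486 and miR-133a. This rank leaves out the fibre miRNA miR-499, which had too few day 3 values under the detection limit to be tested. It may have stood further below baseline than miR-489. At day 1 and day 7 miR-489 stood at ranks 36 of 211 and 52 of 213 from the lowest. The day 1 fall turned to a value above baseline, 1.27 ± 0.41, with the control RNA Y1 (adjusted p = 0.00497). The day 7 fall was not called with Y1, snoRNA202 or with raw Ct, and with U6 without value 4 of day 7 it was -0.94 (adjusted p = 0.072).

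At day 21 miR-489 differed from baseline by 0.02 ± 0.37 against the median miRNA, with a 95% interval of -0.75 to 0.79 (adjusted p = 0.974). With U6 the difference was -0.10 ± 0.50 (-1.11 to 0.91, adjusted p = 0.905). It was called lower with snoRNA135, at -1.12, and higher with Y1, at 1.09. At that time 22.1% of miRNAs were above and 19.2% below baseline. The day 21 values against the median miRNA, 0.13, -0.16, 0.00 and 0.11, lay inside the baseline range of -0.44 to 0.49.

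Each step of miR-489 passed the test under both scalings. Between days 1 and 3 it fell, with a step of -3.95 ± 0.37 against the median miRNA and -3.17 ± 0.50 with U6 (adjusted p = 6.68e-09 and 5.25e-06). It then rose by 2.29 ± 0.37 from day 3 to 4 (2.74 ± 0.50; adjusted p = 2.8e-05 and 6.74e-05), by 1.67 ± 0.37 from day 4 to 7 (2.26 ± 0.50; adjusted p = 0.000799 and 0.00123) and by 1.47 ± 0.37 from day 7 to 21 (1.44 ± 0.50; adjusted p = 0.00142 and 0.025). The last call did not hold with snoRNA202 (0.80, adjusted p = 0.0651) or with raw Ct (0.42, adjusted p = 0.3). With U6 it did not hold when value 1 (1.37) or value 4 (0.84) of day 7, or value 1 (1.20) or value 2 (1.37) of day 21, was left out (adjusted p between 0.055 and 0.168). Ordered by level against the median miRNA, day 3 was lowest, then day 4, then days 1 and 7, whose values overlapped, and then baseline and day 21, which overlapped as well. With U6 the values of day 1 overlapped those of day 4, and in raw Ct those of day 7 overlapped baseline.

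**Figure D2:**
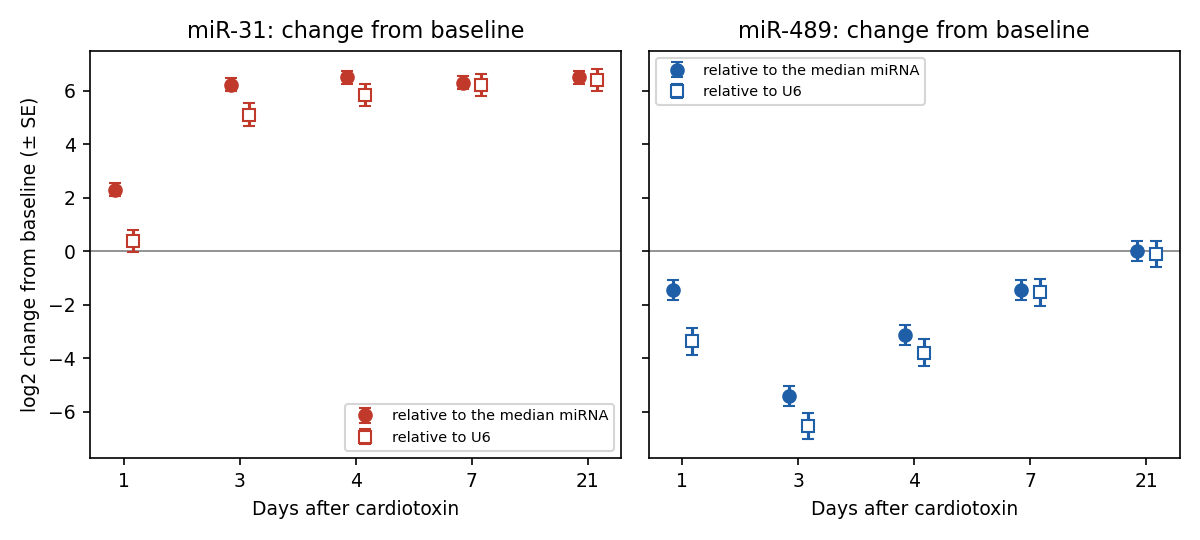
Change from baseline of miR-31 (left) and miR-489 (right) on days 1, 3, 4, 7 and 21 (days spaced evenly), in log2 units ± SE of the limma fit; filled circles are against the median miRNA and open squares with U6. The scalings lie furthest apart at day 1, by 1.91, and nearly coincide at days 7 and 21, where miR-31 stays above 6 and miR-489 reaches 0.02 and -0.10 at day 21.

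A comparison that needs no control RNA is the gap between the assays, the Ct of miR-489 minus that of miR-31 in values of the same number, whose pairing by number is assumed. At baseline the gap was -0.94, -0.15, -0.31 and 1.34 cycles. It was 4.00, 3.95, 3.47 and 3.55 at day 1, and 12.73, 11.40, 11.13 and 11.24 at day 3. Day 4 gave 9.39, 9.98, 9.18 and 9.87, day 7 gave 7.49, 7.02, 7.20 and 9.23, and day 21 gave 6.06, 6.52, 6.62 and 6.67. At each time point the gap lay wholly above that of baseline. Because assays can differ in efficiency, only its changes are read here, not its size.

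On days 1, 3, 4, 7 and 21 the gap had widened from baseline by 3.76 ± 0.50, 11.64 ± 0.61, 9.62 ± 0.52, 7.75 ± 0.70 and 6.48 ± 0.50 cycles (change ± SE). A two-sided exact permutation test gave p = 0.0286 for each of these, the smallest that 4 against 4 values can give, and adjusted p = 0.0322 over 9 gap comparisons. The changes of miR-31 and miR-489 therefore differed at every time point, day 1 included. The gap widened by 7.88 ± 0.40 between days 1 and 3 and narrowed by 2.02 ± 0.42 between days 3 and 4 (exact permutation p = 0.0286 each). From day 4 to 7 the change of -1.87 ± 0.54 did not pass (exact permutation p = 0.0571), since the day 7 gap of 9.23 fell among those of day 4. From day 7 to 21 it narrowed by 1.27 ± 0.53 (exact permutation p = 0.0286).

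**Figure D3:**
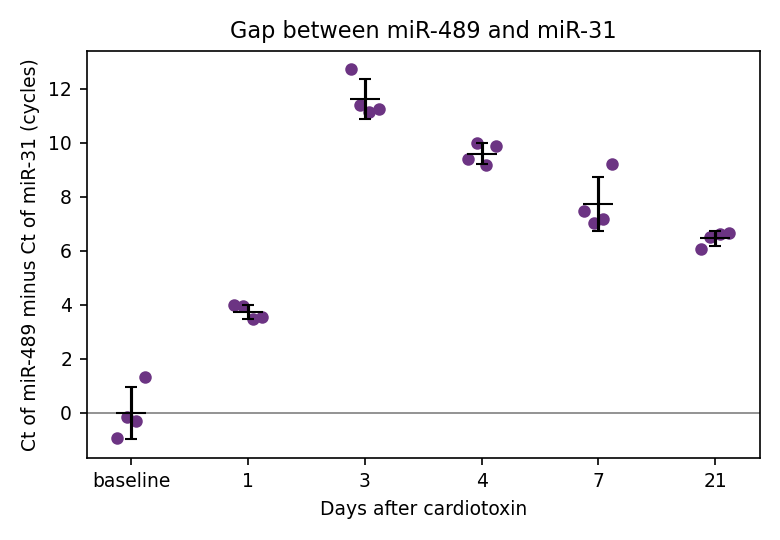
Ct of miR-489 minus Ct of miR-31, in cycles, at baseline and on days 1, 3, 4, 7 and 21 (days spaced evenly). Points are the 4 values of a group, bars mean ± SD; the mean gap goes from -0.015 at baseline to 11.6 at day 3 and is still 6.47 at day 21, with every injured value above every baseline value.

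**Figure D4:**
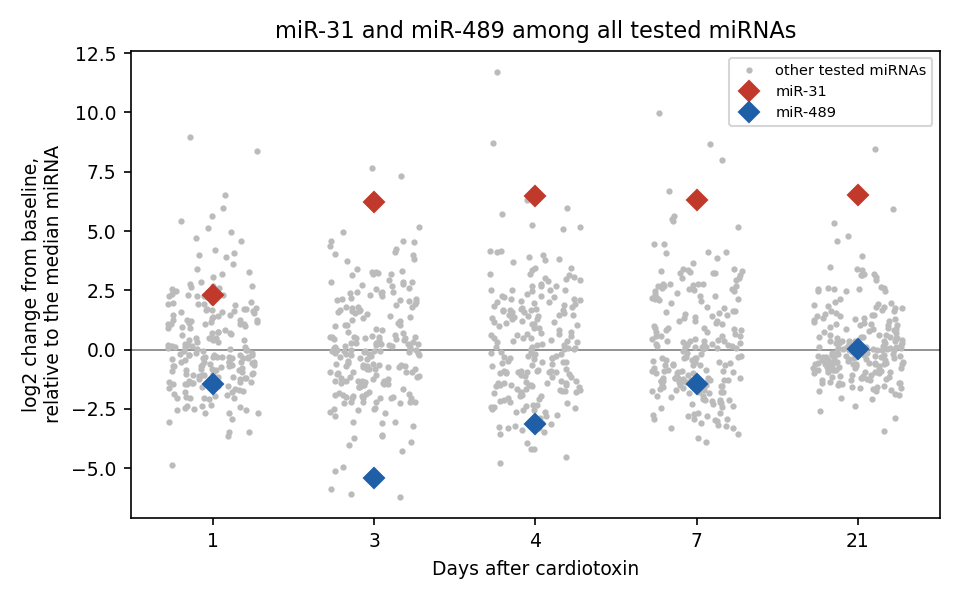
Log2 change from baseline, against the median miRNA, of each of the 211 to 213 tested miRNAs on days 1, 3, 4, 7 and 21 (grey, spread sideways for visibility), with miR-31 as red and miR-489 as blue diamonds. miR-31 lies near the top of the panel from day 3 on, and miR-489 near the bottom at day 3 and in the middle at day 21.

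The fall of miR-489 was smaller than that of 4 fibre miRNAs at day 1, while at day 3 no difference from them passed the test. Its change was compared on raw Ct with those of the fibre miRNAs detected in every group, miR-1, miR-133a, miR-133b and miR-486, at each time point. Of these 20 exact permutation tests, chosen after the values were seen, 12 passed at an adjusted p of 0.0477. Each of the 12 had an exact permutation p of 0.0286, the smallest that 4 against 4 values can give. Their adjusted p therefore depends on how many of the tests reached that smallest value. At day 1 miR-489 had lost less than all 4, by 3.38 ± 0.59 log2 units less than miR-1, 1.59 ± 0.32 less than miR-133a, 1.46 ± 0.30 less than miR-133b and 2.17 ± 0.61 less than miR-486. At day 3 the differences were 0.78 ± 0.59, 0.45 ± 0.47, -0.48 ± 0.49 and 0.67 ± 0.49, and none passed (exact permutation adjusted p between 0.343 and 0.471). The comparison leaves out the fibre miRNA miR-499, which had too few day 3 values under the detection limit. Its loss at day 3 may have been larger than that of miR-489 and was not tested.

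At day 21 miR-489 stood higher relative to baseline than miR-1 by 1.46 ± 0.31, than miR-133a by 1.29 ± 0.16 and than miR-133b by 1.26 ± 0.27. Against miR-486, a miRNA enriched in muscle and red cells, the day 21 difference was -0.18 ± 0.63 and did not pass (exact permutation adjusted p = 0.842). At day 4 the fall of miR-489 was larger than that of miR-133b by 1.42 ± 0.21, and smaller than that of miR-1 and miR-133a by 1.65 ± 0.38 and 1.40 ± 0.43. The day 4 difference from miR-486, -0.56 ± 0.50, did not pass (exact permutation adjusted p = 0.343). At day 7 it stood above miR-1 and miR-133a by 1.84 ± 0.33 and 1.66 ± 0.26, while the differences from miR-133b and miR-486, 0.03 ± 0.40 and -0.25 ± 0.49, did not pass.

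The miRNAs whose course was most like that of each member were found by Pearson's r over the 6 group means, among 210 miRNAs detected in every group. These values share the same muscles and baseline and are a description. For miR-31 they were miR-34b-3p (r = 0.99), miR-501-3p (0.98), miR-130a (0.96), miR-34c (0.96) and miR-494 (0.95). miR-34b-3p and miR-34c belong to a family that p53 induces. Among these 5, miR-501-3p and miR-34c came closest in size, at 5.32 and 4.57 log2 units above baseline at day 21, while miR-130a stood at 1.45. For miR-489 they were miR-133a (0.95), miR-547 (0.94), miR-676 (0.92), miR-486 (0.91) and miR-193b (0.90). At day 3 these stood between -6.08 (miR-486) and -2.01 (miR-676).

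**Figure D5:**
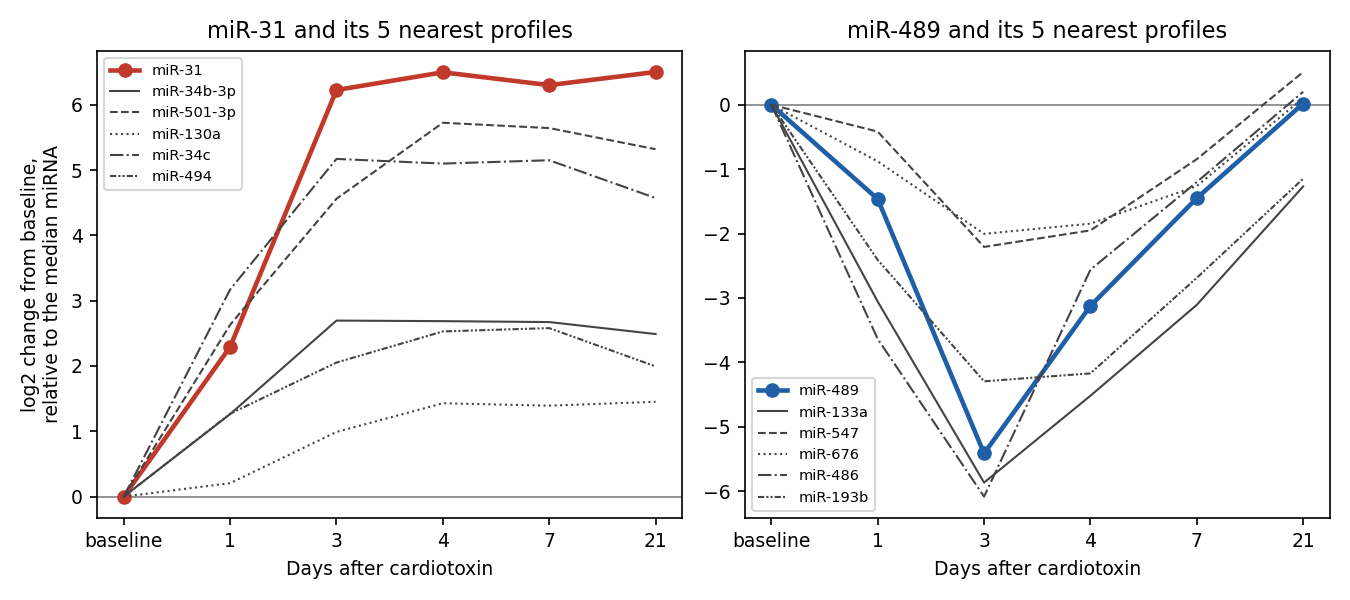
Log2 change from baseline against the median miRNA, group means on days 1, 3, 4, 7 and 21 (days spaced evenly), of miR-31 (left, red) and miR-489 (right, blue) with the 5 miRNAs of most similar course in dark grey. On the left every line lies above its day 1 level from day 3 on, with miR-31 highest of these; on the right all are lowest at day 3, and miR-489, miR-547, miR-676 and miR-486 return to within 0.51 of baseline at day 21.

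miR-425, whose 5p arm has the seed of miR-489 though the assay names no arm, was not below baseline from day 1 to day 7. Against the median miRNA it stood at 2.35, 1.53, 1.57, 1.07 and -0.93 (each ± 0.62) on days 1, 3, 4, 7 and 21. By that scaling days 1, 3 and 4 passed (limma adjusted p = 0.00157, 0.0287 and 0.0235) and days 7 and 21 did not (0.114 and 0.186). With U6 no time point differed from baseline by the test (0.44, 0.40, 0.90, 0.98 and -1.05, adjusted p between 0.0994 and 0.479). It fell between days 7 and 21, with changes of -2.00 ± 0.62 and -2.03 ± 0.53 under the respective scalings (adjusted p = 0.00652 and 0.00415), over the step in which miR-489 rose.

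The other miRNAs listed for satellite cell quiescence were miR-195 and miR-497, neighbours of the miR-15 family that hold back cell cycle genes. miR-195 was at -0.08 ± 0.11 against the median miRNA at day 1, fell on days 3, 4 and 7 (-1.33, -1.68 and -1.48, each ± 0.11), and stood at 0.04 ± 0.11 at day 21. miR-497 fell on days 1, 3 and 4 (-0.53, -0.55 and -0.53, each ± 0.19), and was at -0.20 and 0.62 on days 7 and 21, where the test did not pass under both scalings. Of the 4 miRNAs in this list, 0 rose and 2 fell at day 1, 1 rose and 3 fell on days 3 and 4, 1 rose and 2 fell by day 7, and 1 rose and 0 fell by day 21. The riser was miR-31 each time. In the whole panel 9.00% rose and 38.9% fell at day 1, 19.3% and 41.0% at day 3, and 22.1% and 19.2% at day 21. The list's median change against the median miRNA was -0.30, -0.94, -1.10, -0.83 and 0.33 over the 5 time points, against -0.04, -0.05, 0.06, 0.07 and 0.00 over all tested miRNAs.

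Among 8 miRNAs listed for myoblast activation and proliferation, none rose at any time point, while 4, 5, 6, 3 and 2 fell over the 5 time points. Over all tested miRNAs 9.00%, 19.3%, 25.4%, 31.5% and 22.1% rose and 38.9%, 41.0%, 41.3%, 35.7% and 19.2% fell, so the day 7 and 21 falls lie near the background, and these shares apply to each list described here. Their median change against the median miRNA was -0.48, -0.75, -0.81, -0.54 and -0.14. At day 3 miR-133a, which restrains SRF in myoblasts, and miR-133b fell (-5.87 ± 0.43 and -4.94 ± 0.29). Both are also on the fibre list. miR-221 and miR-222, which target the cell cycle inhibitor p27, were at 1.92 ± 0.20 and 1.43 ± 0.14 against the median miRNA but at 0.79 and 0.31 with U6, where they did not pass. Among 12 measured miRNAs of myogenic differentiation, 0, 1, 1, 2 and 1 rose and 6, 7, 7, 6 and 3 fell over the 5 time points (background falls 38.9%, 41.0%, 41.3%, 35.7% and 19.2%), with a median of -0.40, -1.02, -1.03, -0.85 and 0.14. The largest day 3 changes in that list were falls, those of miR-1 (-6.20 ± 0.47), miR-486 (-6.08 ± 0.57), miR-128a (-3.72 ± 0.17) and miR-26a (-2.78 ± 0.16), of which miR-1 and miR-486 are also fibre markers. The riser at day 3 was miR-503 (2.13 ± 0.18), of the miR-16 family.

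Marker miRNAs of other cell types moved over the same days, and their part in the changes of miR-31 and miR-489 was not tested. All 4 tested fibre markers fell at day 3, when 41.0% of all tested miRNAs fell, and the mean change of the 5 measured lay between -6.98 and -5.58 in the day 3 values. At day 21, 4 of 5 fibre markers were still below baseline, when 19.2% of all tested miRNAs fell, and the mean of the 5 lay between -1.46 and -0.93. The exception was miR-486, at 0.20, and miR-489 was at 0.02. Of 8 tested myeloid and lymphoid miRNAs, 3 rose and 0 fell at day 1 (9.00% and 38.9% of all tested miRNAs). The risers were miR-223 and both arms of miR-142, and with U6 alone 2 of the 8 were lower. At day 3, 3 rose and 2 fell (19.3% and 41.0%). On day 4, 3 rose and 3 fell (25.4% and 41.3%), and on day 7, 2 rose and 3 fell (31.5% and 35.7%). At day 21 0 passed under both scalings in either direction (22.1% and 19.2%). Against the median miRNA, the mean change of the 9 measured was 3.34 to 3.62 at day 1 and 0.34 to 0.71 at day 21. At day 21 miR-31 was 6.50 above baseline. These myeloid and lymphoid means include a miRNA left untested because too few of its baseline values were detected. The day 1 median of the 8 tested was lower, at 1.76 against the median miRNA and -0.15 with U6. At day 21 that median was -0.13 and -0.25 under the respective scalings.

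Of 6 fibroblast and smooth muscle miRNAs, 1 rose and 2 fell at day 3, with a mean change between 0.01 and 0.20, and 0 rose and 1 fell at day 21. These counts lie near the shares over all tested miRNAs, 19.3% and 41.0% at day 3 and 22.1% and 19.2% at day 21. Of 5 tested epithelial miRNAs, 4 rose and 1 fell at day 3, against the same shares (mean change of 6 measured, 3.68 to 4.26), and 0 rose and 1 fell at day 21 (-0.81 to 0.64). These means include 1 miRNA left untested for too few baseline values under Ct 35. The day 3 median of the 5 tested was 3.29 against the median miRNA and 2.17 with U6. Both endothelial miRNAs fell at day 3, when 41.0% of all tested miRNAs fell, with mean changes between -2.43 and -1.57. At day 21 both were at -0.61 against the median miRNA (adjusted p = 0.000341 and 0.00886) but passed only under that scaling. The 1 measured erythroid miRNA, miR-451, fell on days 4 and 7. At day 1 it was at 1.58 against the median miRNA (adjusted p = 0.00038) but at -0.33 with U6, where it did not pass, and on days 3 and 21 it passed under neither scaling. At the limit of Ct 35 or over lay 4 of 24 epithelial and 2 of 36 myeloid and lymphoid wells at baseline, 4 of 20 fibre wells at day 3, and 3 of 24 epithelial wells at day 21.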

How the data were processed

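The deposited files hold raw Ct values, which the authors left unnormalized, per the file headers and values. Per the labels' protocols, total RNA with an integrity number above 9 was assayed for 40 cycles on a 7900HT instrument. The sources used here do not give the Ct threshold or the RNA input. The 5 files repeat the same baseline values, which entered once. Depth has no counterpart in Ct data, and 4 values per group limit the precision.

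Levels were minus Ct, scaled for each value number by subtracting the median shift from baseline of the 205 miRNAs that never reached Ct 35, or by subtracting the U6 value. Values at 40 were left out. Values of the same number were treated as 1 RNA, an assumption that the files do not state. All 6 groups entered 1 fit per miRNA with limma 3.58.1 (lmFit, eBayes) in R 4.3.3. Two-sided p-values received Benjamini-Hochberg adjustment across the 211 to 217 miRNAs tested in a contrast (detected in both groups). The fit was tested on simulated data in which the control RNAs did not shift, so those runs do not bear on the choice of scaling. Intervals are 95% intervals of the fit.

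The members and lists were chosen with earlier results of these data known. The text names the members, the 5 miRNAs of highest r with each, miRNAs sharing a seed or lying within 10000 bases, the quiescence list, up to 4 miRNAs with the largest day 3 change of the activation and differentiation lists, and control RNAs. Marker lists covered fibre, myeloid and lymphoid, fibroblast and smooth muscle, endothelial, epithelial and erythroid miRNAs. For miR-199a, listed without an arm, both arms were used. Alternatives covered the scaling, the Ct limit, values at 40, the groups in the fit, limma-trend and leaving out each value.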

Additional observations from a re-analysis of the deposited data

Results flagged for a closer look

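In groups of 4 values, a value stood apart from the others by Dixon's test (gap to the nearest value over the range) in 3 of 30 groups examined, where chance gives about 1 in 20. These were value 4 of the baseline group for miR-31 against the median miRNA, which was high (ratio 0.849), value 4 of the day 7 group for miR-489, which was low (0.874), and value 1 of the day 3 group for the gap between miR-489 and miR-31, which was wide (0.831).

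The change from baseline differed between successive time points in 5 cases, each a limma contrast of those time points that passed under both scalings. For miR-31 this was day 3 against day 1 (3.93). For miR-489 it was day 3 against day 1 (-3.95), day 4 against day 3 (2.29), day 7 against day 4 (1.67) and day 21 against day 7 (1.47).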

How the results depend on the processing

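With 8 other scalings, the day 3 change of miR-31 ran from 4.45 to 7.54 and its day 21 change from 5.36 to 7.57, and that of miR-489 at day 3 from -7.19 to -4.10, each called in all 8. Relative to U6, miR-31 at day 1 was 0.39 and not called. Relative to Y1, miR-489 was 1.27 at day 1, -0.35 at day 7 (not called) and 1.09 at day 21 (called), and the miR-31 step from day 3 to 4 was -0.75 (called). Relative to snoRNA135, miR-489 at day 21 was -1.12 (called). Relative to snoRNA202 and with raw Ct, miR-489 was not called at day 7 (-0.80 and -0.26) or from day 7 to 21 (0.80 and 0.42), and with raw Ct the miR-31 step from day 7 to 21 was -0.84 (called). What makes the control RNAs differ was not tested.

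The number of miRNAs called relative to the median miRNA was 156 at day 21 and 170, 117, 108 and 153 over the successive steps. Relative to U6 it was 88 and 98, 50, 40 and 74, and relative to U87 it was 65 from day 3 to 4 and 55 from day 4 to 7. Ct limits, values at 40, the groups in the fit, limma-trend and leaving out each value, relative to the median miRNA, changed no call of miR-31 or miR-489. For the 5 miRNAs nearest in course, 3 were shared relative to U6 for each member, and 2 (miR-31) and 1 (miR-489) by mean absolute difference.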

Other observations

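Over the 6 group means, miR-31 and miR-489 had a Pearson's r of -0.46 (scaled to the median miRNA) or -0.16 (scaled to U6). This is a description, as both miRNAs were measured in the same muscles. Measured by mean absolute difference of the 5 changes from baseline, the miRNAs closest to miR-489 were miR-486 (0.77 log2 units), miR-133b (0.93), miR-26a (1.00), miR-23b (1.04) and miR-345-5p (1.05). miR-26a acts on Ezh2 in myoblasts, and stood at -2.78 at day 3 and -0.89 at day 21. The miRNAs closest to miR-31 by that measure were miR-501-3p (0.92) and miR-34c (1.28), followed by miR-431 (2.09), miR-433 (2.19) and miR-335-3p (2.60). Scaled to the median miRNA, miR-431 was at -0.88, 1.75, 7.99 and 5.93 on days 1, 3, 7 and 21, and miR-433 was at 0.49, 4.95, 9.99 and 8.44.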
